A study of Mus musculus with 22 samples.

Results

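Basal radial glia and neurons of the embryonic mouse neocortex were compared here by where each carries 2 histone marks, H3K4me3 and H3K27me3. The comparison takes the peak list of basal radial glia (bRG) and the peak list of neurons (N) for each mark, on the autosomes. A peak was called shared when at least 1 bp of it lay in a peak of the other list, and both directions were counted. These 4 lists hold 38678 of the 110069 peaks of the series: 14596 H3K4me3 peaks in bRG and 15247 in N, and 3387 H3K27me3 peaks in bRG and 5448 in N.

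Basal radial glia are progenitors that divide away from the ventricle, while apical radial glia divide at its surface, and both can give rise to neurons, which no longer divide. H3K4me3 is laid down at the starts of genes that are transcribed or poised for transcription. H3K27me3 is written by Polycomb repressive complex 2 and covers genes that are kept silent, often developmental regulators in broad domains. A site that carries both marks is called bivalent in stem and progenitor cells, although overlap in separate lists does not show that both sat on the same chromosome copy.

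The series mapped the marks by chromatin immunoprecipitation and sequencing in cells purified from C57BL/6JOlaHsd mice. From E14.5 embryos (E for embryonic day) came bRG, N and 2 kinds of apical radial glia, a proliferative one (aRG-P) and a neurogenic one (aRG-N). Neuroepithelial cells (NEC), the earliest progenitors, came from E9.5. Each group had 2 samples per mark, and those of aRG-N H3K27me3 are labelled technical replicates. How the cell types were purified is not given in the sources used here.

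Each list was called by the authors on the combined samples of its group. Replicates therefore could not be set against each other, and differences between the cell types are given without a test. The intervals given are exact Clopper-Pearson 95% intervals, which cover counting error only. Read depth is unknown, so a site missing from a list was not called or not listed there, which does not show that the mark was absent. The lists were also not named in 1 way and may not have been made in 1 way. Peak names of the N H3K27me3 list give a read extension of 200 bp, and those of the other lists give none. Whether reads of the other lists were extended is not known. Gaps in the peak numbers show that 26.5% of the bRG and 33.2% of the N H3K27me3 calls are not listed. For H3K4me3 these shares are 8.63% and 9.30%. Positions are 1-based in mouse build mm9. The gene table at hand is of another build, so sites are given by position, no gene is named, and the cell type labels could not be checked against marker genes.

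H3K4me3 lay at nearly the same places in basal radial glia and neurons. Of the bRG peaks, 921 (6.31%, 5.92 to 6.72%) had no overlapping N peak, and of the N peaks, 1234 (8.09%, 7.67 to 8.54%) had no overlapping bRG peak. In length, 86.5% of the 13.0 Mb under bRG peaks was also under N peaks, and 85.8% of the 13.1 Mb under N peaks was also under bRG peaks. The order of the unshared counts changed with list length. With both lists held to the shorter length by their highest −log10 p, 1140 bRG peaks and 932 N peaks were unshared. At equal length these counts can differ only where a peak meets several peaks of the other list. Their order there cannot show which cell type has more unshared sites.

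Where a bRG peak and an N peak met only each other, 11318 pairs in all, their widths were alike. The median width was 788 bp in bRG and 779.5 bp in N, and 49.2% of the pairs were wider in N. Across these pairs the Spearman correlation was 0.881 for width and 0.749 for fold enrichment, the authors' ratio of the peak's signal to its background. These correlations are over sites of 2 lists and describe them only.

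The unshared H3K4me3 peaks were the weak and narrow ones of each list. In bRG their median fold enrichment was 4.53 and their median width 289 bp, against 9.05 and 803 bp for shared peaks. In N the corresponding values were 4.97 and 295 bp, against 8.78 and 774 bp. They made up 2.47% of the length of the bRG list and 3.32% of the N list.

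Fold enrichment sorted the shared from the unshared sites steeply in both lists. Under a fold enrichment of 5, 29.8% of bRG peaks and 37.9% of N peaks were unshared. From 5 to 7 the shares were 9.06% and 13.8%. At 7 and above only 24 of 9552 bRG peaks (0.251%) were unshared, and 46 N peaks (0.46%) were.

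**Figure D1:**
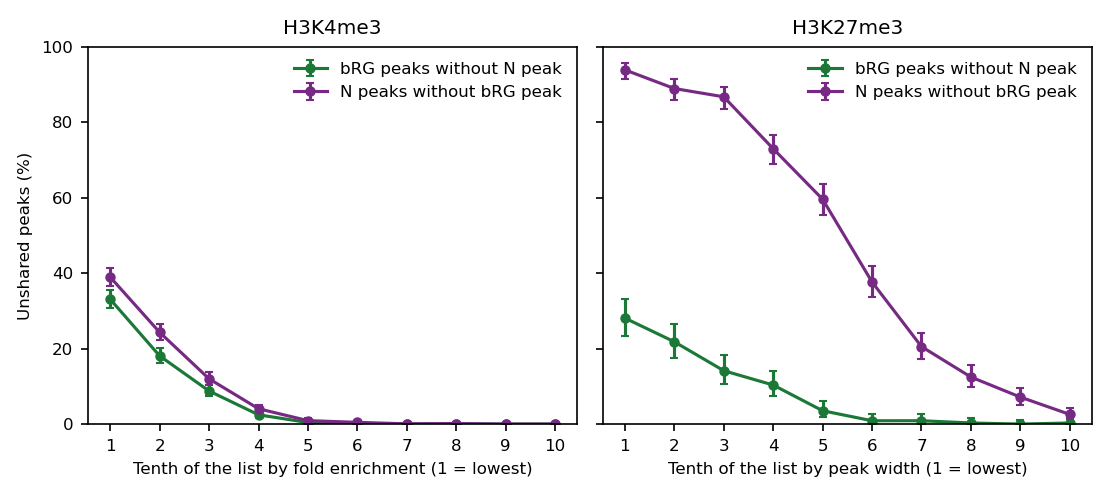
Share of peaks with no overlapping peak of the other list, in percent, in 10 equal groups of a list, ordered from 1 (lowest) to 10 by fold enrichment for H3K4me3 and by width for H3K27me3. Points joined by lines stand for the bRG and N lists and bars for exact 95% intervals, and both vertical axes run to 100%. The lowest group of H3K4me3 peaks holds 33.1% unshared peaks in bRG and 39.0% in N, and the shortest group of H3K27me3 peaks 28.1% in bRG and 93.9% in N.

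Most unshared H3K4me3 peaks stood near a peak of the other list. Of the 921 in bRG, 582 (63.2%) had an N peak within 5000 bp, and of the 1234 in N, 809 (65.6%) had a bRG peak within that distance. This left 339 bRG sites and 425 N sites with none so near. At the edge of the overlap rule, 79 unshared bRG peaks lay within 100 bp of an N peak and 102 shared ones overlapped by at most 100 bp, and in N these numbers were 133 and 101.

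The unshared sites of the progenitor and of the neuron differed in where else they were listed. Of the 921 bRG peaks absent from the N list, 837 (90.9%, 88.8 to 92.7%) overlapped an H3K4me3 peak of aRG-P or aRG-N. Of the 1234 N peaks absent from the bRG list, 739 (59.9%, 57.1 to 62.6%) did. Among shared peaks the share was 99.0% for bRG and 99.3% for N. Sites in none of the 3 other progenitor lists, NEC included, were 25 (2.71%) in bRG and 242 (19.6%) in N. An apical peak overlapped or lay within 1000 bp of 906 (98.4%) unshared bRG and 1044 (84.6%) unshared N peaks. The contrast was thus smaller at that reach. Names of the aRG-P and aRG-N H3K4me3 lists add 2000 bp up and down, and those of bRG and N do not. Apical peaks may therefore have been kept by their place. Whether this took part in the contrast was not tested.

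By direct overlap, more of the unshared bRG peaks met neurogenic than proliferative apical radial glia. The aRG-N list met 823 (89.4%) of the unshared bRG peaks and the aRG-P list 443 (48.1%), with 394 in aRG-N alone of the 2 and 14 in aRG-P alone. For the unshared N peaks the numbers were 578 (46.8%) and 456 (37.0%), with 283 in aRG-N alone and 161 in aRG-P alone. The aRG-N list has fewer peaks than the aRG-P list (14278 against 15475) and covers more of the genome (15.2 against 11.6 Mb). With the aRG-P list held to the length of the aRG-N list, aRG-P met 358 of the unshared bRG and 298 of the unshared N peaks. The covered length was not equalised. With an apical peak within 1000 bp counted as well, the lists lay closer together: aRG-N reached 899 (97.6%) and aRG-P 733 (79.6%) of the unshared bRG peaks, and 948 (76.8%) and 919 (74.5%) of the unshared N peaks.

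**Figure D2:**
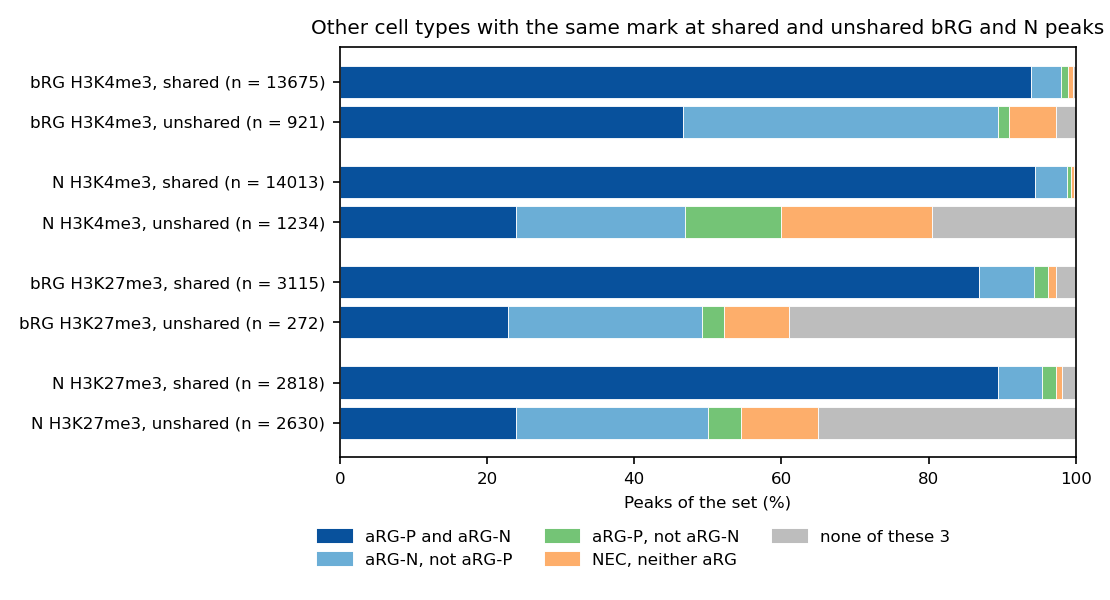
For the 4 lists, the percentage of unshared and of shared peaks that overlapped the same mark in both apical radial glia lists, in 1 of them, in the NEC list but neither, or in none. Of the unshared H3K4me3 peaks, 2.71% in bRG and 19.6% in N fall in the class with no other progenitor list, and of the unshared H3K27me3 peaks 39.0% and 35.0% do.

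Because weak peaks are more often unshared, the same shares were taken among peaks of like strength. Below a fold enrichment of 5, 87.8% of unshared and 92.3% of shared bRG peaks were also listed in aRG-P or aRG-N, so the bRG classes lay close together there. In N the values were 53.0% of unshared and 97.0% of shared peaks. The 2 apical lists split in bRG: aRG-N met 85.8% of unshared and 85.3% of shared bRG peaks of this band, and aRG-P met 39.6% and 69.5%.

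Most bRG sites far from any N peak were also listed in other progenitors. Of the 339 such peaks, 323 (95.3%) were in an apical list, 315 (92.9%) in NEC and 169 (49.9%) in all 3 lists. Among shared bRG peaks these shares were higher, at 99.0%, 98.2% and 93.2%. Among the 8 with the highest fold enrichment (7.25 to 9.30), 7 were in the aRG-P, aRG-N and NEC lists alike. At the top stood chromosome 4, 154009521 to 154010654, at a fold enrichment of 9.30 and 219.2 kb from the nearest N peak. There the H3K4me3 peak was 4.25 kb wide in aRG-N (fold enrichment 16.2), 1.95 kb in aRG-P and 1.13 kb in bRG. Neurons had no H3K4me3 there and an H3K27me3 domain of 12.5 kb, 154006935 to 154019477. In bRG 2 H3K27me3 peaks, of 2.08 and 6.25 kb, and 3 H3K4me3 peaks lay in the same interval.

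A second such site was at chromosome 9, 118387531 to 118390498, the longest unshared H3K4me3 peak of bRG at 2.97 kb, with a fold enrichment of 7.96. In aRG-N the peak measured 5.0 kb at a fold enrichment of 20.3, and in aRG-P 0.312 kb at 4.71. H3K27me3 was listed over the site in all 5 cell types, with a 6.69 kb domain in N and a 4.36 kb domain in bRG. At chromosome 14, 122863610 to 122864172 (fold enrichment 7.25), the N H3K27me3 domain over the site measured 32.2 kb, 122859750 to 122891969, and the bRG one 4.69 kb.

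The chromosome 2 site at 105508797 to 105509759 (fold enrichment 9.05) lay in an N domain described with the sites that differ in both marks. The other 4 of the 8 carried no H3K27me3 in any of the 5 lists. Of these, 3 were on chromosome 9 at 65738207 to 65738751, chromosome 7 at 26465591 to 26466078 and chromosome 4 at 134066918 to 134067291, with fold enrichments of 7.50, 7.32 and 7.29, and were also in NEC, aRG-P and aRG-N. The fourth, chromosome 8 at 86528218 to 86528919 (fold enrichment 7.50), was listed in bRG alone among the 5 cell types. An N peak lay 5.33 kb from it.

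Ranked without regard to distance, the strongest unshared bRG peak was at chromosome 14, 31943931 to 31945145, with a fold enrichment of 11.6 and an N peak 1753 bp away. The 2 apical lists had it too, and NEC did not. The next below the chromosome 4 and chromosome 2 sites, chromosome 6 at 124780203 to 124780883 (fold enrichment 8.79), missed an N peak by 90 bp. These were singled out after their values were seen.

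The strongest neuronal sites away from bRG peaks were, like most such sites, in the NEC list. NEC overlapped 362 (85.2%) of the 425 N peaks farther than 5000 bp from bRG, 72.9% of all unshared and 98.5% of shared N peaks. The NEC H3K4me3 list is also the largest of the series, with 17196 autosomal peaks over 19.7 Mb. Of the 8 with the highest fold enrichment (7.99 to 10.5), 8 overlapped a NEC peak, 6 an aRG-P peak and 3 an aRG-N peak, 2 of them both. The first was chromosome 5, 139847646 to 139848279, with a fold enrichment of 10.5 in N and 15.8 in NEC and no peak in either apical list. Its nearest bRG peak was 8.25 kb away. H3K27me3 was not listed there in any cell type.

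Next came chromosome 1, 195195232 to 195196476, at a fold enrichment of 9.08 and a width of 1.25 kb, also in NEC and aRG-P and without H3K27me3. On chromosome 3 at 83959382 to 83959678 the fold enrichment was 8.53 in N, 7.28 in aRG-P and 10.3 in NEC. Another site at 8.53, chromosome 1 at 90101984 to 90102325, was in aRG-N and NEC, and NEC carried H3K27me3 over it. The other 4 lay under H3K27me3 of both bRG and N: chromosome 7 at 139158139 to 139159402, chromosome 8 at 123157830 to 123158583, chromosome 4 at 154771825 to 154772193 and chromosome 14 at 50144793 to 50145664.

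Among the N peaks found in no progenitor list, the strongest was chromosome 19, 47090708 to 47091881, with a fold enrichment of 9.90 and a width of 1.17 kb. A bRG peak lay 184 bp away. H3K27me3 overlapped this site in all 5 cell types, over 6.34 kb in aRG-N, 2.24 kb in bRG and 1.10 kb in N. The other 4 of the top 5 had a fold enrichment of 6.89 each and lay 198 to 1013 bp from a bRG peak. In bRG the top 5 of this class ran from 4.93 to 7.50, led by the chromosome 8 site above.

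H3K27me3 was listed over more of the genome in neurons, and there the lists differed mainly in 1 direction. Of the bRG peaks 272 (8.03%, 7.14 to 9.0%) had no overlapping N peak, and of the N peaks 2630 (48.3%, 46.9 to 49.6%) had no overlapping bRG peak. The bRG peaks covered 12.4 Mb and the N peaks 21.8 Mb. Of the bRG length 95.2% lay under N peaks, and of the N length 54.3% lay under bRG peaks.

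Most of the additional neuronal length was at shared sites. The 2630 unshared N peaks held 3.76 Mb, 17.2% of the N list. Of the N length with no bRG mark the larger part thus came from N domains that a bRG peak overlapped. A shared bRG peak was overlapped over a median of 100% of its length, and a shared N peak over 61.5%.

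Domains that met only each other gave 2548 pairs, with a median width of 2183.5 bp in bRG and 3717 bp in N. In 2277 pairs (89.4%) the N domain was the wider, and the median ratio of N to bRG width was 1.54. In 807 pairs the N domain was more than 2 times as wide, and in 26 the bRG domain was. Peak names of the N list give a read extension of 200 bp and those of the bRG list give none. Whether extension took part in the widths was not tested.

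Some broad neuronal domains faced several shorter bRG peaks. Of the 5448 N domains, 242 (4.44%) met more than 1 bRG peak, at a median length of 11.7 kb, and bRG peaks covered 62.2% of these domains. In the other direction 14 bRG domains (0.413%) met more than 1 N peak. The domain with the most, chosen by that number, was chromosome 9, 63327270 to 63381865, in N: 54.6 kb that met 8 bRG peaks, which covered 58.9% of it.

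Width separated shared from unshared H3K27me3 peaks as fold enrichment did for H3K4me3. The median width of unshared peaks was 641 bp in bRG and 1101 bp in N, and that of shared peaks 2162 and 3972.5 bp. At 3000 bp and above, 3 of 1133 bRG peaks (0.26%) and 202 of 2058 N peaks (9.82%) were unshared. Below 1000 bp the shares were 22.7% and 91.0%.

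The count of unshared N peaks depended on list length. With the N list held to the 3387 peaks of the bRG list by its highest first score, 834 N peaks and 541 bRG peaks were unshared. Between lists of equal length these counts can differ only where a peak meets several peaks of the other list. The deposited score's meaning could not be settled from the files, and it is used here only to rank peaks within a list.

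Over all widths, about equal shares of the unshared H3K27me3 peaks of either cell were listed in apical radial glia. It was 142 of 272 in bRG (52.2%, 46.1 to 58.3%) and 1432 of 2630 in N (54.4%, 52.5 to 56.4%), against 96.2% and 97.3% of shared peaks. In both lists more of them met aRG-N than aRG-P: 134 against 70 in bRG, and 1317 against 746 in N. With the aRG-N list held to the length of the aRG-P list, these became 118 against 70 and 1047 against 746. In no other progenitor list were 106 bRG peaks (39.0%) and 920 N peaks (35.0%). At like width the shares listed in an apical list were less alike. Below 1000 bp it was 51.0% of unshared bRG and 39.9% of unshared N peaks, and from 1000 to 3000 bp 53.3% and 64.1%. At 3000 bp and above it was 3 of 3 in bRG and 158 of 202 in N.

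The longest bRG domain without a neuronal counterpart was chromosome 1, 4477417 to 4492513, at 15.1 kb. The nearest N domain was 517.6 kb away. All of the other progenitors had H3K27me3 there, over 15.2 kb in aRG-P, 17.6 kb in aRG-N and 15.6 kb in NEC. H3K4me3 was listed within it in NEC alone, as 1 peak of 0.286 kb.

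After it the lengths dropped to 3.83 kb and less. The domains at chromosome 9, 58046503 to 58050336 (3.83 kb), and chromosome 3, 89122374 to 89125452 (3.08 kb), were in all 4 progenitor lists. Neurons carried H3K4me3 over both, and so did other cell types. On chromosome 9 the N peak was 4.0 kb at a fold enrichment of 9.36, and bRG had 3 peaks of 0.369 to 1.44 kb. NEC and aRG-P had H3K4me3 there too, and aRG-N did not. On chromosome 3 the N peak was 2.22 kb, and H3K4me3 was listed in all 5 cell types. The domain at chromosome 19, 41816081 to 41818254 (2.17 kb), was likewise in all 4 progenitor lists and had H3K4me3 in all 5 cell types.

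Chromosome 4, 118218586 to 118221404 (2.82 kb, score 28.8), was the longest H3K27me3 peak listed in bRG and no other cell type. It had no H3K4me3 in any list. A pair of peaks on chromosome 8, 125935562 to 125938440 and 126037468 to 126039202, was in bRG and NEC and in neither apical list, and both lay on H3K4me3 of all 5 cell types. The last of the 8, chromosome 11 at 3031011 to 3032977, was in both apical lists, with a score of 59.9.

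The longest neuronal domains without bRG marking were much longer. Chromosome 10, 67013104 to 67037823, measured 24.7 kb in N and 25.6 kb in aRG-N, and aRG-P had 2 peaks of 16.4 and 3.59 kb there. Chromosome 18, 66184151 to 66200105, measured 16.0 kb in N, 21.6 kb in aRG-N, 16.4 kb in aRG-P and 7.23 kb in NEC. Both lay close to a bRG domain, at 8.90 and 6.18 kb. Neither carried H3K4me3 in any list.

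In 3 of the 8, aRG-N was the single other cell type with the mark. Chromosome 5, 148029493 to 148042625, spanned 13.1 kb in N and 14 kb in aRG-N. At chromosome 2, 34101546 to 34113780, N had 12.2 kb and aRG-N 1.16 kb, and at chromosome 8, 94145609 to 94155258, N had 9.65 kb and aRG-N 3.61 kb. The domain at chromosome 11, 117746487 to 117756677 (10.2 kb), was in both apical lists.

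A different pattern was seen at chromosome 4, 22416838 to 22428556, and chromosome 19, 59534483 to 59546117. H3K27me3 was listed at both in NEC (23.8 and 21.8 kb) and in N (11.7 and 11.6 kb) and in none of the 3 radial glia lists. Both carried H3K4me3 in all 5 cell types. They were the only 2 of the 8 longest domains with H3K4me3 in any list.

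**Figure D3:**
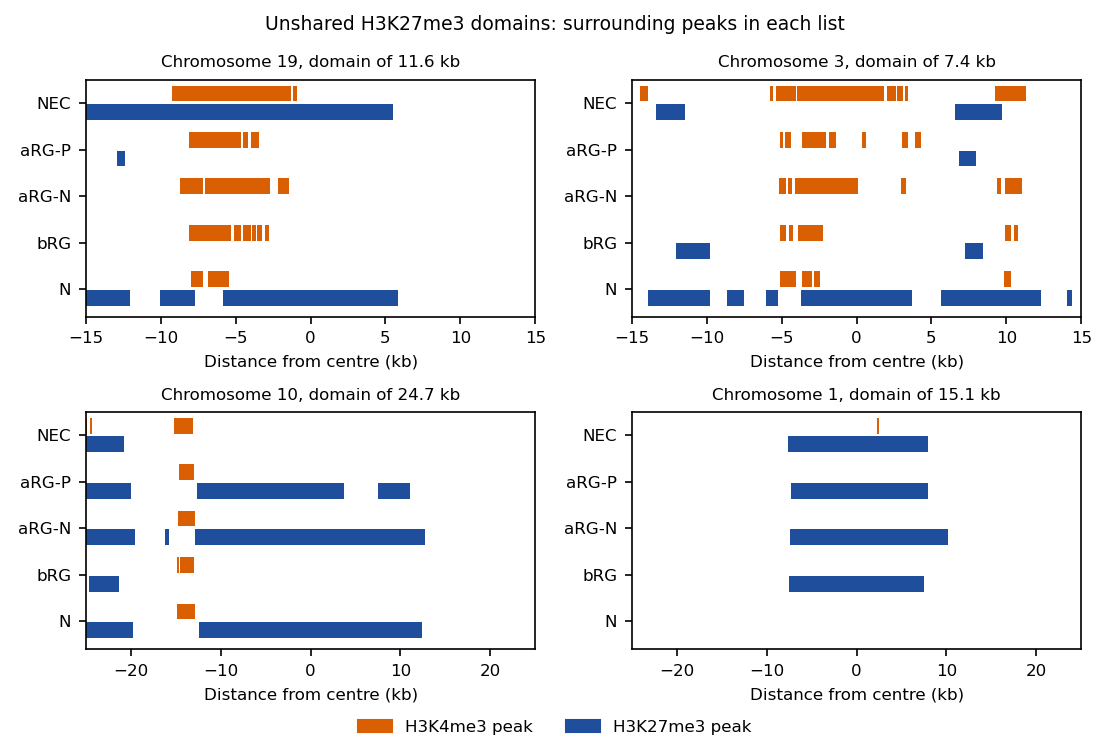
Maps of 4 unshared H3K27me3 domains, 3 from the N list (chromosomes 19, 3 and 10) and 1 from the bRG list (chromosome 1). Rows are the 5 cell types, H3K4me3 and H3K27me3 peaks are separate bars drawn from start to end, and the horizontal axis is the distance in kb from the domain's centre. No bRG H3K27me3 bar crosses the N domains of 11.6, 7.4 and 24.7 kb, and the N row is empty at the bRG domain of 15.1 kb.

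Among N domains found in no progenitor list, the 5 longest measured 6.61 to 8.73 kb. The longest was chromosome 14, 122799978 to 122808710, which carried no H3K4me3 in any list. At chromosome 3, 34549141 to 34556540 (7.4 kb), H3K4me3 was present in all 5 cell types. Its H3K4me3 peaks reached 5.79 kb in NEC and 4.16 kb in aRG-N, 1.67 kb in bRG, and 0.708 kb in N, where a second peak of 0.402 kb followed. The remaining 3, on chromosome 10 at 119851101 to 119858258, chromosome 3 at 131148357 to 131154985 and chromosome 17 at 24968107 to 24974720, had no H3K4me3.

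Unshared H3K4me3 sites lay under H3K27me3 more often than shared ones in both cell types. Of the unshared bRG sites, 198 (21.5%) overlapped H3K27me3 of bRG and 302 (32.8%) that of N, against 7.74% and 11.6% of shared bRG peaks. Of the unshared N sites, 292 (23.7%) overlapped H3K27me3 of bRG and 361 (29.3%) that of N, against 7.57% and 11.6% of shared N peaks. Among peaks of like strength the contrasts were smaller below a fold enrichment of 7 and larger at 7 and above. Below a fold enrichment of 5, H3K27me3 of bRG was found at 22.6% of unshared and 18.0% of shared bRG peaks, and that of N at 33.7% and 25.6%. From 5 to 7 these values were 18.9% and 17.5% for bRG, and 30.6% and 24.7% for N. At N peaks below 5, H3K27me3 of bRG was found at 24.3% of unshared and 13.6% of shared peaks. That of N was found at 29.8% and 22.2%. At 7 and above only 24 bRG and 46 N peaks were unshared. H3K27me3 of bRG was at 20.8% of these bRG peaks and 3.41% of shared ones, and that of N at 33.3% and 5.77%. At N peaks of this band the values were 30.4% and 5.21% for bRG, and 34.8% and 7.57% for N.

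Sites with H3K4me3 in one cell type and H3K27me3 in the other were mostly marked by H3K4me3 in bRG and H3K27me3 in N. At 107 of the 921 unshared bRG H3K4me3 sites (11.6%) H3K27me3 was listed in N and not in bRG, against 659 (4.82%) of the shared ones. The reverse, N H3K4me3 with H3K27me3 in bRG and not in N, held at 11 of the 1234 unshared N sites (0.89%) and at 124 (0.885%) of the shared N peaks. The N H3K27me3 list is the longer, and at the unshared N sites too H3K27me3 was more often in N and not in bRG (80 sites, 6.48%) than the reverse. Among shared bRG peaks 128 had H3K27me3 in bRG and not in N. With both H3K27me3 lists held to equal length, the 107 and 11 became 83 and 21, and the 80 became 55.

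Of the 107, 100 carried H3K4me3 in aRG-N, 69 in aRG-P and 105 in NEC. H3K27me3 was listed at 29 of them in aRG-P, 37 in aRG-N and 65 in NEC, and at 34 in none of the 4 progenitor lists. The domain of N over the site overlapped no bRG domain at 64 of the 107. Of the 11 sites of the reverse kind, H3K4me3 was listed in aRG-N at 2 and in NEC at 5, and H3K27me3 in aRG-N at 10.

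The site at chromosome 15, 103196382 to 103197340, differed between the cell types in both marks. H3K4me3 was listed there in all 4 progenitors, with fold enrichments of 7.25 in bRG, 11.1 in aRG-N, 8.14 in aRG-P and 36.0 in NEC. No progenitor had H3K27me3. In N there was no H3K4me3 peak within 25.7 kb, and an H3K27me3 peak of 1.88 kb, 103195857 to 103197733, covered the site.

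Chromosome 7, 123183263 to 123183809, had the same lists, with a fold enrichment of 7.64 in bRG and a 10.2 kb N domain, 123173313 to 123183504, that ended inside the site. An N H3K4me3 peak lay 4.83 kb off. At chromosome 14, 123312081 to 123312574, H3K27me3 was in N (2.05 kb) and aRG-N (0.744 kb). At chromosome 4, 55544912 to 55545291, and chromosome 14, 67254201 to 67254488, it was in NEC, both apical lists and N, with bRG alone left out, and an N H3K4me3 peak was 330 and 615 bp away.

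The densest group of unshared bRG H3K4me3 peaks lay under 1 neuronal H3K27me3 domain at chromosome 2, 105498580 to 105532564 (34 kb, score 35.8). Within it bRG had 10 H3K4me3 peaks covering 6.40 kb, with fold enrichments of 3.64 to 11.4, and N had 1, at 105516245 to 105516795 (0.551 kb, fold enrichment 5.79). The N peak fell inside the strongest bRG peak, 105515672 to 105517212, so 9 of the 10 were unshared. The bRG peaks from 105514332 to 105523339, the strongest included, were separated by gaps below 3000 bp. Joined across such gaps, they form 1 region that the N peak overlaps. The bRG peaks at 105508797 to 105509759 and 105509845 to 105510510 lay farther off and would stay unshared. H3K27me3 of bRG was listed in the domain as 3 peaks of 10.9 kb in all.

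The apical lists also had several H3K4me3 peaks in this domain. H3K4me3 took 13.9 kb in 6 peaks in aRG-N and 6.57 kb in 11 peaks in aRG-P, and H3K27me3 took 3.42 kb and 7.95 kb. NEC had 13.7 kb of H3K4me3 and 21.3 kb of H3K27me3. The domain and the next were picked for their number of unshared peaks, which is therefore a description.

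At the chromosome 19 domain described above, 59534483 to 59546117, 5 of the 6 bRG H3K4me3 peaks were unshared. The sixth, 59532196 to 59535020 (2.83 kb, fold enrichment 13.2), overlapped the single N peak of the domain, 59533458 to 59534865 (1.41 kb, 7.16). It also overlapped an N peak just outside the domain, 59532320 to 59533095 (0.776 kb, 7.99). The 5 unshared peaks followed it up to 59537537, with gaps below 3000 bp. Joined across such gaps, all 6 form 1 region shared with N, so the 5 are peaks as listed and not separate sites. No N domain other than these 2 held 4 or more unshared bRG peaks. Over all N domains, 263 held at least 1 unshared bRG H3K4me3 peak and 339 at least 1 unshared N peak, with 23 and 21 holding 2 or more.

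**Figure D4:**
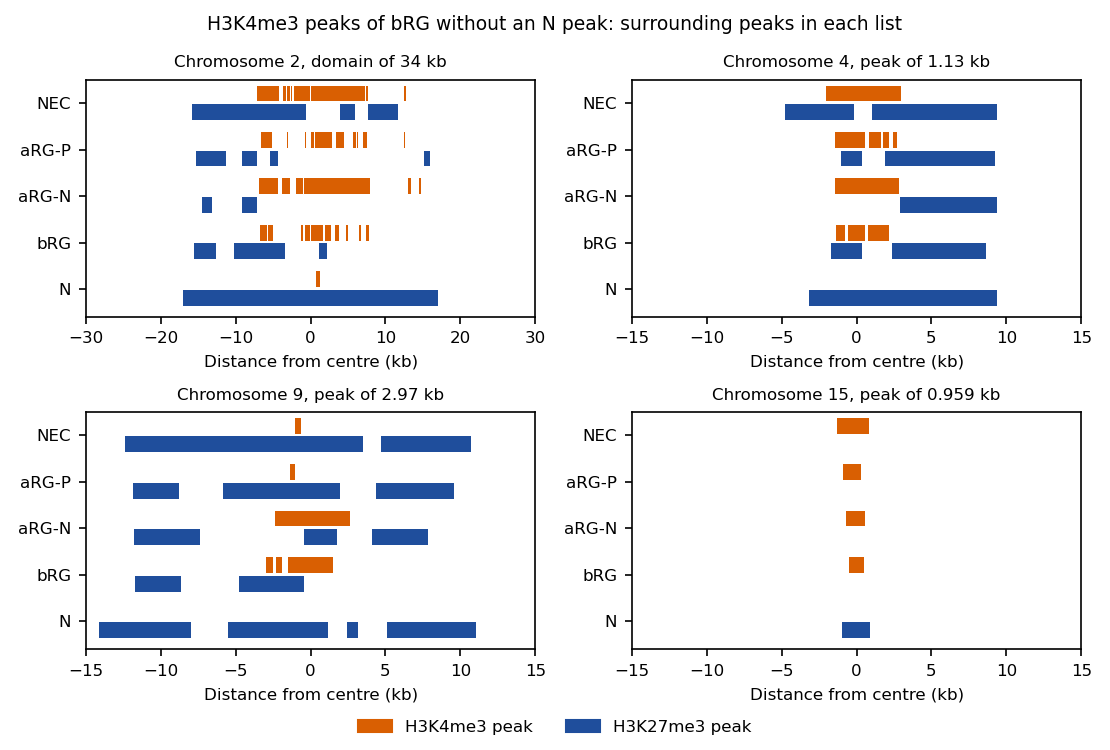
Maps around bRG H3K4me3 peaks without an overlapping N peak: the chromosome 2 domain and the sites on chromosomes 4, 9 and 15. Rows are the 5 cell types, H3K4me3 and H3K27me3 peaks are separate bars drawn from start to end, and the horizontal axis is the distance in kb from the centre of the domain or peak. On chromosome 2 the N row shows 1 H3K27me3 bar of 34 kb and 1 H3K4me3 bar, and the bRG row 10 H3K4me3 bars.

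Read from the H3K27me3 side, 70 of the 2630 unshared N domains (2.66%) overlapped H3K4me3 of bRG and not of N, and 43 of these lay on an unshared bRG H3K4me3 peak. H3K4me3 of N and not of bRG was found at 85 (3.23%) of them, and among shared N domains the shares were 4.76% and 7.77%. Without regard to width, such sites were no more frequent among unshared than among shared N domains. Shared N domains were wider, at a median of 3972.5 against 1101 bp, and these shares were not taken at like width. The 5 longest of the 70 measured 3.39 to 4.27 kb. The first was chromosome 15, 97595617 to 97599889, where bRG had 2 H3K4me3 peaks, both of fold enrichment 4.93. Both apical lists and NEC also had H3K27me3 over it, so bRG was the single cell type of the 5 without the call. The same held at chromosome 17, 25705118 to 25709229, chromosome 1, 169527532 to 169531555, and chromosome 11, 115835049 to 115838440.

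For the 272 unshared bRG domains the reverse, H3K4me3 of N and not of bRG, was found at 12 (4.41%), against 7.38% of shared bRG domains. The longest was chromosome 5, 21851333 to 21853372 (2.04 kb), with an N peak of 0.260 kb at its edge. Most unshared N domains had no H3K4me3 at all: 2051 of 2630 (78.0%) overlapped no H3K4me3 peak of either cell type. H3K4me3 of N was found at 19.4% of unshared and 43.2% of shared N domains.

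Unshared sites were found on every autosome. The share of unshared H3K4me3 peaks ran from 4.46% on chromosome 14 to 8.19% on chromosome 18 in bRG and from 6.52% on chromosome 2 to 9.45% on chromosome 7 in N. For H3K27me3 it ran from 3.14% on chromosome 10 to 14.3% on chromosome 14 in bRG and from 42.2% on chromosome 19 to 55.0% on chromosome 6 in N.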

How the data were processed

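Immunoprecipitation used a LowCell ChIP kit and library preparation a MicroPlex kit, per the labels' protocols. Build mm9, MACS2, Bowtie 1.0.0 and bedtools are named in the submitters' processing notes. The deposited values used here are 10 peak lists, 1 per cell type and mark, each called on combined samples per its peak names. The list names refer to all transcripts, per the file headers, and those of aRG-P and aRG-N H3K4me3 add 2000 bp up and down, so peaks may have been kept by their place. The aRG-P H3K27me3 peaks came from a combined file named as excluding a set. The H3K4me3 values are fold enrichment, a ratio, with −log10 p and −log10 q, as the authors deposited them. The 3 deposited H3K27me3 columns are called a score here, since column 9 exceeded column 8 in every peak and their meaning was not settled. Medians in different lists do not measure a change. Read depth is unknown, and the 2 Input samples were not used.

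Overlaps of at least 1 bp were counted in Python 3.11.15 with scipy 1.17.1, pandas 2.3.3 and numpy 2.4.6, and figures were made with matplotlib 3.10.9. The scripts were tested on simulated lists. Any overlap with another list, however small, counted as marked there. Sites named in the text are, per mark and direction, the 8 strongest (H3K4me3) or longest (H3K27me3) unshared peaks farther than 5000 bp from the other list, the top 5 with the other mark in the other cell type alone, and the top 5 in no other progenitor list. Domains and stretches picked by their number of peaks were chosen after their values were seen. Members, lists and rules were chosen with earlier results of these data known. Planned gene lists and cell type markers were not used, since no mm9 annotation was at hand. Alternatives were a 50% overlap, a distance of 5000 bp, peaks joined across 3000 bp, lists of equal length, −log10 q of at least 5, a common lowest score and all chromosomes. Apical lists of equal length, a reach of 1000 bp, H3K27me3 lists of equal length and bands of strength or width were added after seeing the data.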

Additional observations from a re-analysis of the deposited data

How the results depend on the processing

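No paired analysis was possible because each list was called on combined samples, and for the same reason no replicate could be left out. Of 54 alternative values for 12 counts, 39 stayed within 1.5 times the reported count and 15 did not; why they moved was not tested beyond what each setting removes. Asking for no peak of the other list within 5000 bp left 339 bRG and 425 N H3K4me3 peaks and 167 bRG H3K27me3 peaks unshared. Of these, 323, 264 and 72 were also in an apical radial glia list, while 177 of the 339 overlapped H3K27me3 of N and 180 of the 425 that of bRG. Joining peaks across 3000 bp left 354 of 11136 bRG and 455 of 11241 N H3K4me3 regions unshared. With H3K27me3 lists of equal length, 541 bRG and 834 N peaks were unshared, of which 377 and 587 were in an apical list. With at least 50% of its length under bRG H3K4me3, 127 unshared N H3K27me3 peaks counted as overlapping, against 494 at 1 bp. The larger number of unshared H3K4me3 peaks in N than in bRG held at a −log10 q of at least 5 (1279 against 704). At equal length the counts were 932 in N and 1140 in bRG, which can differ only through peaks that meet several of the other list. Unknown depth limits every statement on a mark not listed.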

Other observations

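Some stretches held many unshared H3K27me3 peaks side by side. They were picked for that number, and their values are given as a description. On chromosome 11, from 44421399 to 44821328, N had 35 peaks covering 155 kb, the densest such stretch, with 21 unshared peaks in the 1 Mb window around it. In the same stretch bRG had 20 peaks covering 61.2 kb, aRG-P 13 covering 69.0 kb, aRG-N 18 covering 88.0 kb and NEC 4 covering 15.5 kb. H3K4me3 was listed there in NEC, with 3 peaks, and in none of the 4 E14.5 cell types. On chromosome 4, from 150550520 to 150978816, N had 15 peaks covering 23.7 kb and bRG 1 peak of 0.407 kb, while aRG-N had 15 and aRG-P 9 close by.

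The reverse was seen on chromosome 8, from 125887873 to 126039202, where bRG had 7 H3K27me3 peaks covering 10.3 kb, N 3 covering 2.25 kb, NEC 2 and the apical lists none. H3K4me3 was listed along it in all 5 cell types. On chromosome 11, from 3031011 to 3093483, bRG had 4 H3K27me3 peaks with scores of 59.9 to 97.3, aRG-P had 3 and aRG-N had 5, while N and NEC had none. The median score of the bRG list is 20.2. H3K4me3 was listed in all 5 cell types over 1 of these bRG peaks, 3093051 to 3093483. Its fold enrichments there ran from 1.91 in N to 2.55 in NEC, and the 2.06 in bRG was the lowest of that list. What lay behind the calls of both marks at this place was not tested.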
